A study of Mus musculus with 8 samples.

Results

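The 31 genes described here encode the enzymes and regulators with which cells make cholesterol and fatty acids. They comprise 18 genes of the sterol arm, which leads from acetyl units to cholesterol, 8 genes of the fatty acid arm, and 5 regulators and carriers. They were taken by gene symbol from a list of the pathways, and 27 of the 31 had a probe set, 1 each, among the 19505 genes measured: 16 of the sterol arm, 7 of the fatty acid arm and 4 of the regulators and carriers. Acat2, Tm7sf2, Srebf1 and Scd2 were not analysed here. All 27 measured members gave a signal above the 95th percentile of the negative control probe sets on all 8 arrays.

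The samples were cultured mesenchymal stromal cells, the adherent precursor cells of connective and fat tissue, prepared from inguinal fat of 12-month-old FVB males and kept in high-glucose medium with fetal bovine serum. All had been infected with the lentiviral vector pLKO.1. The vector carried a short hairpin RNA against Irf7 (shIRF7, 4 arrays), a scramble hairpin (2 arrays) or no insert (empty vector, 2 arrays), and the scramble and empty vector arrays are together called the 4 controls. The study concerns IRF7, a transcription factor of the interferon response, in the ageing of these cells. The labels give neither the hairpin's sequence nor its promoter, and do not say whether replicates were separate cultures, animals or infections. P-values here thus reflect array-to-array spread alone, possibly technical, and the number of arrays limits the precision.

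In the mevalonate pathway acetyl-CoA is built up to farnesyl diphosphate, joined to squalene, closed to lanosterol and trimmed to cholesterol. Fatty acids are made from the same acetyl-CoA by way of malonyl-CoA and are then elongated and desaturated. Both arms are driven by the SREBP transcription factors, which the escort protein SCAP carries to the Golgi for cleavage when membrane sterol is low, and which INSIG proteins hold back in the endoplasmic reticulum when sterol is plentiful. SREBP2, from Srebf2, acts mainly on the sterol genes, commonly beside NF-Y, which binds CCAAT boxes, and Sp1, which binds GC boxes. In fat tissue the fatty acid arm feeds triglyceride storage, while in dividing cells sterol synthesis supplies new membrane.

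The promoters of 6 members are shown as examples, picked by no fixed rule: 4 steps of the sterol arm, the feedback regulator Insig1, and the fatty acid elongase Elovl6. Each line is the 250 bases before the gene start in RefSeq (mouse build GRCm38.p6, plus strand for all 6), 5′ to 3′, and capitals mark CCAAT on either strand (ATTGG when read on the other strand) and TCACNCCAC, a form of the sterol regulatory element. They lie at chr13:119690101-119690350 (Hmgcs1), chr13:8885356-8885605 (Idi1), chr10:76531355-76531604 (Lss), chr7:143829964-143830213 (Dhcr7, 1 of 3 starts listed), chr5:28071162-28071411 (Insig1) and chr3:129532136-129532385 (Elovl6). The Dhcr7 start shown is the only 1 of its 3 with a CCAAT match.
Hmgcs1: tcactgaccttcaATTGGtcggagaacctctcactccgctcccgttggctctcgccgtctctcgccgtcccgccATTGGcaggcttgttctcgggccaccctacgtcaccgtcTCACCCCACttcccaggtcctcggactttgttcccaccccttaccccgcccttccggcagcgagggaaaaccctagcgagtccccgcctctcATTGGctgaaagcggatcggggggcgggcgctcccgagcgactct
Idi1: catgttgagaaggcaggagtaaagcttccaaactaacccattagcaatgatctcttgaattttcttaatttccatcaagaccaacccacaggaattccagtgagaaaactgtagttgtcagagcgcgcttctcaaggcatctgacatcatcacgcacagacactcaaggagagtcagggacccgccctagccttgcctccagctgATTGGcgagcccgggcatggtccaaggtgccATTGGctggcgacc
Lss: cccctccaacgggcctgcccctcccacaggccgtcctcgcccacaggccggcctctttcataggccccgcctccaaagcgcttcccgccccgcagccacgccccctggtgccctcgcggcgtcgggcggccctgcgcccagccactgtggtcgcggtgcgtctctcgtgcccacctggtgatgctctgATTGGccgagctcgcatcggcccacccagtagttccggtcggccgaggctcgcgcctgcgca
Dhcr7: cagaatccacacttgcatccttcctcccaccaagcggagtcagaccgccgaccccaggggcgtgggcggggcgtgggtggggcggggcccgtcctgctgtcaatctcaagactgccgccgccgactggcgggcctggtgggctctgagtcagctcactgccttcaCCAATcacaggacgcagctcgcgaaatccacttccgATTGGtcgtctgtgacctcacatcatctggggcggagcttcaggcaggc
Insig1: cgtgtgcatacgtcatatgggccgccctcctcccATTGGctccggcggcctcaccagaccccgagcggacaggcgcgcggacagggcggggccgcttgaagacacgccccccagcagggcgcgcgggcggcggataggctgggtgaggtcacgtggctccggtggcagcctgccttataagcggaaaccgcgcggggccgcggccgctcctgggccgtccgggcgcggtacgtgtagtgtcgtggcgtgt
Elovl6: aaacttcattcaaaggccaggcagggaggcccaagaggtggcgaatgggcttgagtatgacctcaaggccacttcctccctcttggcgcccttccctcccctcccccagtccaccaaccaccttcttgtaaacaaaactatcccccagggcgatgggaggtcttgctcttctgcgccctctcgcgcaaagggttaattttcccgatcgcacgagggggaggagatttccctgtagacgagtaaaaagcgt

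Of the 27 measured members 21 had such a RefSeq window, taken with 50 further bases after the start (300 bases in all). A CCAAT match on either strand was present in all 13 sterol arm windows, in 2 of 5 of the fatty acid arm (Acly and Fasn) and in 2 of 3 of the regulators (Srebf2 and Insig1), against 41.06% of 27025 genes with a window. GGGCGG, a GC box, was present in 12 of 13, 2 of 5 and 3 of 3, against 38.2% of all genes. TCACNCCAC occurred only in Hmgcs1 among the members, against 1.44% of all genes; the core of an interferon response element (GAAA, any 2 bases, GAAA) occurred only in Ebp, against 3.99%. Both strands were searched, and a gene with several starts counted once if any of its windows held the letters. These matches describe the letters in the windows and are not binding sites.

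Irf7, the targeted gene, measured 4.42, 5.66, 6.47 and 6.79 on the log2 scale in shIRF7 replicates 1 to 4, against 9.56 and 9.76 in scramble and 9.55 and 9.61 in empty vector. All 4 shIRF7 values lay below all controls, and the difference of -3.79 (SE 0.48) had an adjusted p of 0.0692 in limma, which misses the threshold of 0.05. As to the labelled cell type, the stromal markers Pdgfrb, Eng, Cd44 and Itgb1 (4 of 6 measured) exceeded the negative control percentile on all 8 arrays, Thy1 on 2 and Nt5e on none. None of the 6 adipocyte markers did so on all arrays (Adipoq, Plin1, Cidec and Lipe on none), and all 4 macrophage and all 4 endothelial markers measured were below it throughout. In such bulk RNA, fewer cells of a type and less RNA per cell cannot be told apart.

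The first comparison asked whether the lipid synthesis genes differed in shIRF7 cells. The signal of 15 of the 16 sterol arm genes averaged higher in shIRF7 than in the controls, with a median log2 difference of 0.57, but none of the 27 members passed the test. The feedback regulator Insig1, the phosphomevalonate kinase gene Pmvk and the desaturase gene Fads1 had the smallest p-values, and all 3 were higher in shIRF7. In limma with Benjamini-Hochberg adjustment over all 19505 genes, 0 of 27 members passed, where 0.0308% of all genes did (6 genes, all lower in shIRF7). Without adjustment 3 members had a p under 0.05, all higher, against 4.01% of all genes that were so and higher. Of the 7288 genes above the negative control percentile on at least 2 arrays, 473 were so and higher.

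**Figure D1:**
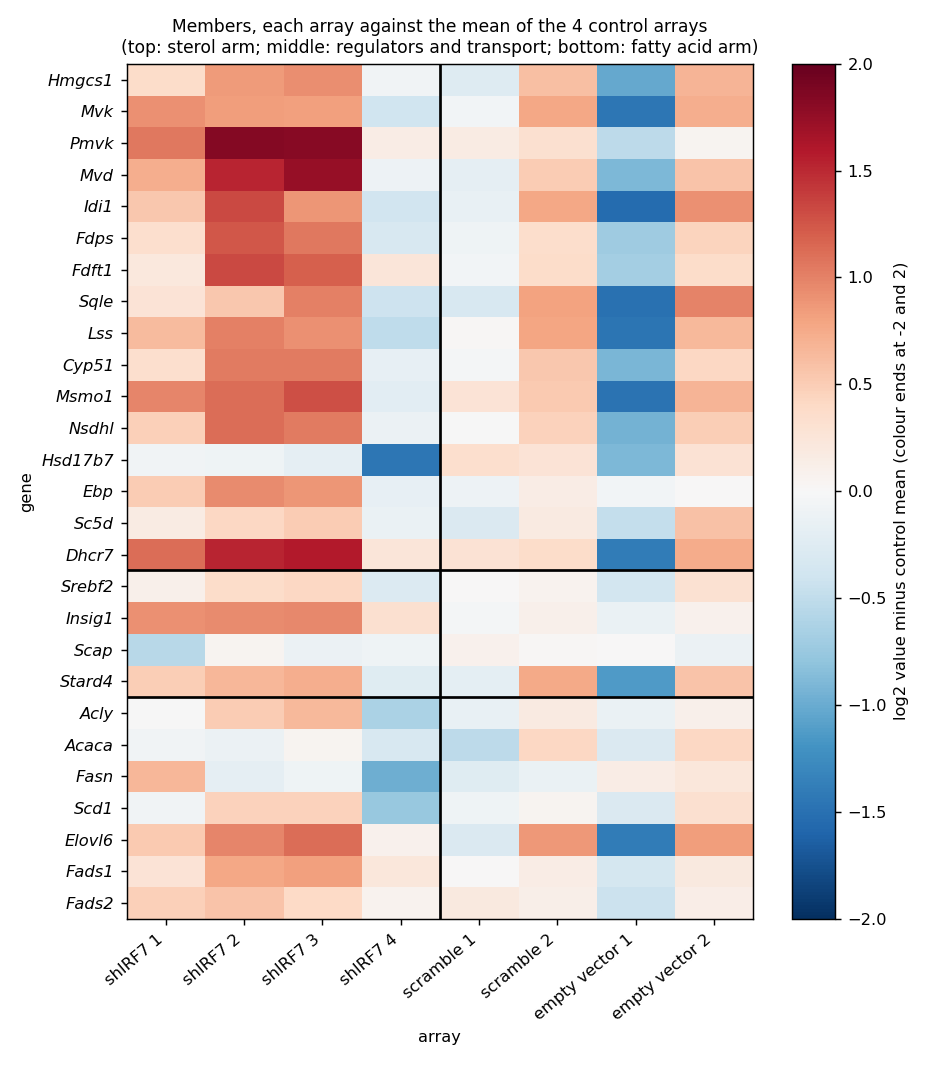
Each row is a measured gene and each column an array, coloured by the log2 value minus the mean of the 4 controls (red above, blue below; rows in pathway order, with lines between sterol arm, regulators and carriers, and fatty acid arm). shIRF7 replicates 2 and 3 are the reddest columns, while empty vector replicate 1 is the bluest. That array is the lowest of 8 arrays in 20 of 27 members, a count not made over all genes.

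Insig1, whose protein retains SCAP and SREBP in the endoplasmic reticulum and whose gene is itself an SREBP target, measured 13.92, 13.96, 13.98 and 13.34 in shIRF7 replicates 1 to 4, against 12.97 and 13.11 in scramble and 12.88 and 13.09 in empty vector. All 4 shIRF7 arrays were above all 4 controls, with replicate 4 well below the other shIRF7 arrays. Its means were 13.80 ± 0.31 in shIRF7 and 13.01 ± 0.11 in the controls (SD, n = 4 each), so that shIRF7 was higher by 0.79 on the log2 scale (SE 0.18), or 1.73-fold, with a 95% interval of 0.36 to 1.22. The limma p was 0.00296 and the adjusted p 0.287. Within replicate number 1 the difference was 1.00 and within number 2 it was 0.86. The numbers, here and below, were not taken as pairs, so each such difference sets 1 shIRF7 array against same-numbered controls. Of the promoters above, that of Insig1 has its single CCAAT match at the end of the printed stretch that is farther from the gene.

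Among the other regulators, Srebf2, which encodes SREBP2, measured 15.69, 15.95, 15.999 and 15.32 in shIRF7, against 15.59 and 15.66 in scramble and 15.22 and 15.89 in empty vector. The groups overlapped, and the difference was 0.15 (SE 0.22, adjusted p = 0.921 in limma). Scap, the escort of SREBP, measured 12.58, 13.19, 13.03 and 13.05 in shIRF7, against 13.23 and 13.16 in scramble and 13.15 and 13.03 in empty vector. Only shIRF7 replicate 1 stood apart, below every other array, and the difference was -0.18 (SE 0.17, adjusted p = 0.863 in limma). Stard4, a soluble sterol carrier, measured 10.32, 10.49, 10.56 and 9.58 in shIRF7, against 9.63 and 10.59 in scramble and 8.69 and 10.39 in empty vector. Its groups overlapped along most of their range (difference 0.41, SE 0.42).

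In the mevalonate steps the median difference was 0.585 and all 6 measured genes were above 0. Pmvk, which adds the second phosphate to mevalonate, measured 10.31, 11.08, 11.07 and 9.39 in shIRF7, against 9.41 and 9.56 in scramble and 8.72 and 9.30 in empty vector. Replicates 1 to 3 of shIRF7 were above all controls, and replicate 4 lay between the empty vector and the scramble values. The difference of 1.21 (SE 0.39, 2.32-fold, 95% interval 0.31 to 2.11) was the largest of the members, with an unadjusted p of 0.0146 and an adjusted p of 0.477 in limma. It was 1.24 within replicate number 1 and 1.65 within number 2. Mvk, the mevalonate kinase gene, measured 10.66, 10.59, 10.57 and 9.35 in shIRF7, against 9.69 and 10.53 in scramble and 8.30 and 10.48 in empty vector. Here shIRF7 replicates 1 to 3 lay just above the second replicates of both controls, and the difference was 0.54 (SE 0.52).

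Mvd, the mevalonate diphosphate decarboxylase gene, averaged 11.95 ± 0.83 in shIRF7 and 10.99 ± 0.68 in the controls (SD, n = 4 each). The difference was 0.97 (SE 0.48, adjusted p = 0.681 in limma). Hmgcs1, whose product makes HMG-CoA, averaged 15.81 ± 0.47 in shIRF7 and 15.29 ± 0.80 in the controls (difference 0.52, SE 0.42). Both genes overlapped between the groups. For Fdps, the farnesyl diphosphate synthase gene, the difference was 0.58 (SE 0.40). Idi1, the isopentenyl diphosphate isomerase gene, measured 12.96, 13.73, 13.30 and 12.03 in shIRF7, against 12.26 and 13.19 in scramble and 10.88 and 13.34 in empty vector. Only shIRF7 replicate 2 exceeded all controls, and the difference of 0.59 was no larger than its SE of 0.58.

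In the squalene steps the median difference was 0.51 over 3 genes. Fdft1, the squalene synthase gene, measured 14.22, 15.32, 15.21 and 14.25 in shIRF7, against 13.96 and 14.37 in scramble and 13.33 and 14.37 in empty vector. Replicates 2 and 3 of shIRF7 stood clear of the controls and replicates 1 and 4 did not (difference 0.74, SE 0.35, adjusted p = 0.659 in limma). Sqle, the squalene epoxidase gene, measured 12.40, 12.67, 13.14 and 11.72 in shIRF7, against 11.82 and 12.94 in scramble and 10.65 and 13.12 in empty vector. The shIRF7 values lay within the range of the controls but for replicate 3, which was level with empty vector replicate 2 (difference 0.35, SE 0.57). Lss, the lanosterol synthase gene, measured 14.30, 14.68, 14.58 and 13.16 in shIRF7, against 13.69 and 14.47 in scramble and 12.21 and 14.32 in empty vector. Its groups overlapped, with a difference of 0.51 (SE 0.52).

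In the steps from lanosterol to cholesterol the median difference was 0.56 over 7 genes, of which 6 were above 0. Dhcr7, which reduces the last ring double bond before cholesterol, measured 11.47, 11.89, 11.95 and 10.60 in shIRF7, against 10.65 and 10.72 in scramble and 8.96 and 11.10 in empty vector. Replicates 1 to 3 of shIRF7 were above all controls, and replicate 4 was just below both scramble arrays. The difference was 1.12 (SE 0.49, 2.17-fold, adjusted p = 0.625 in limma). Ebp, a sterol isomerase gene, measured 12.14, 12.58, 12.52 and 11.47 in shIRF7, against 11.54 and 11.79 in scramble and 11.57 and 11.63 in empty vector. Of the 21 members with a promoter window it alone held the interferon response core, which 3.99% of all genes held. The controls lay close together and shIRF7 replicate 4 was below all of them (difference 0.54, SE 0.26, adjusted p = 0.659 in limma).

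Msmo1, the methylsterol monooxygenase gene, measured 10.87, 11.01, 11.19 and 9.69 in shIRF7, against 10.17 and 10.42 in scramble and 8.42 and 10.58 in empty vector. Replicates 1 to 3 of shIRF7 were above all controls (difference 0.79, SE 0.51). Cyp51, the lanosterol demethylase gene, Nsdhl, a sterol dehydrogenase gene, and Sc5d, a sterol desaturase gene, differed by 0.56 (SE 0.39), 0.63 (SE 0.39) and 0.24 (SE 0.27), and each overlapped between the groups. Hsd17b7, a ketosteroid reductase gene, was the one sterol arm member with a lower mean in shIRF7. It averaged 11.67 ± 0.67 in shIRF7 and 12.11 ± 0.60 in the controls (SD, n = 4 each). The difference was -0.44 (SE 0.38, adjusted p = 0.848 in limma).

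**Figure D2:**
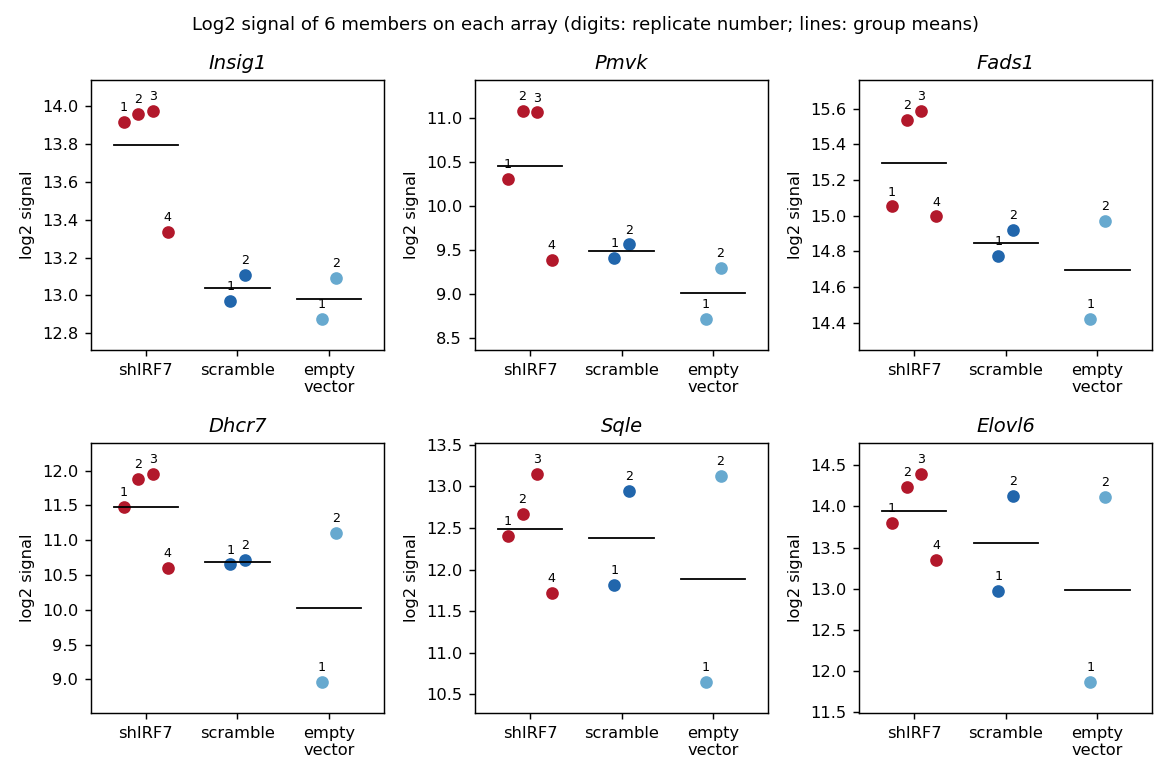
Log2 signal (vertical axes) of Insig1, Pmvk, Fads1, Dhcr7, Sqle and Elovl6 in shIRF7, scramble and empty vector, with each dot an array, the digit its replicate number and each line a group mean. Insig1 and Fads1 have all 4 shIRF7 arrays above all controls, whereas for Sqle and Elovl6 the spread between control replicates 2 and 1 is wider than the gap between the groups.

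In the fatty acid arm the median difference was 0.13, and 5 of 7 genes were above 0. Fads1, a desaturase gene of polyunsaturated fatty acid synthesis, measured 15.05, 15.54, 15.59 and 14.995 in shIRF7, against 14.77 and 14.92 in scramble and 14.42 and 14.97 in empty vector. All 4 shIRF7 arrays were above all 4 controls, replicate 4 only just. The difference was 0.52 (SE 0.21, 95% interval 0.04 to 1.00, unadjusted p = 0.0368, adjusted p = 0.584 in limma). Fads2, its partner desaturase gene, averaged 16.07 ± 0.21 in shIRF7 and 15.70 ± 0.29 in the controls (SD, n = 4 each). The difference was 0.38 (SE 0.18, adjusted p = 0.662 in limma). Elovl6, which lengthens palmitate, measured 13.80, 14.24, 14.39 and 13.35 in shIRF7, against 12.97 and 14.13 in scramble and 11.87 and 14.11 in empty vector. Its groups overlapped, with a difference of 0.68 (SE 0.51).

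The enzymes that make palmitate and the main desaturase of saturated fatty acids showed small differences of either sign. Acly, which cuts citrate to cytosolic acetyl-CoA, measured 13.93, 14.45, 14.59 and 13.30 in shIRF7, against 13.79 and 14.12 in scramble and 13.80 and 14.04 in empty vector (difference 0.13, SE 0.29). Fasn, the fatty acid synthase gene, measured 12.30, 11.45, 11.55 and 10.66 in shIRF7, against 11.39 and 11.50 in scramble and 11.79 and 11.87 in empty vector (difference -0.145, SE 0.32). For both, shIRF7 arrays were the highest and the lowest of all 8. Acaca, which makes malonyl-CoA, measured 9.95, 9.90, 10.07 and 9.70 in shIRF7, against 9.49 and 10.43 in scramble and 9.73 and 10.43 in empty vector (difference -0.11, SE 0.25). Its shIRF7 values lay between the first and the second control replicates but for replicate 4, which was just under empty vector replicate 1. Scd1, the stearoyl-CoA desaturase gene, measured 15.27, 15.81, 15.81 and 14.60 in shIRF7, against 15.26 and 15.40 in scramble and 15.06 and 15.66 in empty vector (difference 0.02, SE 0.30).

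For comparison, the median difference over all 19505 genes was 0.002, with 50.3% above 0, and over all 27 members it was 0.52, with 23 above 0. Groups did not overlap in 2 of 27 members, Insig1 and Fads1, both higher in shIRF7, against 2.58% of all genes that lay wholly higher. Of the 7288 genes above the negative control percentile on at least 2 arrays, 289 were so placed. Without shIRF7 replicate 4 the members so placed numbered 9 (6 of them of the sterol arm: Mvk, Pmvk, Mvd, Msmo1, Ebp and Dhcr7), against 3.57% of all genes. With any other array left out they numbered 2, again Insig1 and Fads1. shIRF7 replicate 4 was the lowest of the shIRF7 arrays in 25 of 27 members, against 4443 of all 19505 genes. Leaving it out thus favours the members in this count. Replicates 2 and 3 were each above all controls in 20 of 27, against 4044 and 4108 of all genes. Among the controls, empty vector replicate 1 was the lowest of all 8 arrays in 14 of 16 sterol arm genes, a count not made over all genes. Leaving that array out gave a sterol median of 0.24, leaving out empty vector replicate 2 gave 0.996 and leaving out shIRF7 replicate 4 gave 0.87, and no member passed the test in any of these fits.

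Some of the stromal markers were lower in shIRF7. The mean distance of the 6 from the controls was -0.185, -1.05, -0.91 and -0.45 in shIRF7 replicates 1 to 4, against 0.08 and -0.06 in scramble and 0.06 and -0.08 in empty vector, so that the mean was lower on all 4 shIRF7 arrays. The median over the markers was 0.05 in shIRF7 replicate 1, where 4 of 6 lay above the control mean. In limma 0 of the 6 passed (0.0308% of all genes). Without adjustment 2 had a p under 0.05, both lower, against 800 of all 19505 genes that were so and lower. These 2 were Thy1 (-2.15), which exceeded the negative control percentile on 2 arrays only, and Cd44 (-1.34). Pdgfrb differed by 0.02. The mean level of the 6 adipocyte markers was 4.62 to 5.23 in shIRF7, against 4.70 to 5.44 in the controls. The part of these markers in the values of the lipid synthesis genes was not tested.

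Set against each control alone, shIRF7 averaged higher in 24 of 27 members (scramble) and in 23 of 27 (empty vector), by different amounts. Against scramble the sterol median was 0.37 (15 of 16 above 0, and 50.8% of all genes) and the fatty acid median 0.11. Against empty vector they were 0.87 (15 of 16 above 0, and 50.6% of all genes) and 0.15. No member passed limma's adjusted threshold in either comparison, where 0.00513% and 0.0% of all genes did. Without adjustment, 1 member had a p under 0.05 against scramble (Insig1, difference 0.76, SE 0.23, adjusted p = 0.593) and 5 had one against empty vector (Pmvk, Dhcr7, Insig1, Fads1 and Fads2), against 2.87% and 2.54% of all genes that were so and higher. Of the 7288 genes above the negative control percentile on at least 2 arrays, 304 were so and higher against scramble and 292 against empty vector. Both comparisons share the 4 shIRF7 arrays. Against empty vector Insig1 differed by 0.815 (SE 0.23, adjusted p = 0.632), Pmvk by 1.45 (SE 0.47, adjusted p = 0.72) and Dhcr7 by 1.44 (SE 0.60, adjusted p = 0.827, all limma). The sterol median against empty vector was 0.12 without empty vector replicate 1 and 1.66 without empty vector replicate 2.

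The controls also differed from each other. In scramble against empty vector the sterol median was 0.49, with 15 of 16 genes above 0 (49.5% of all genes), and the fatty acid median 0.04. The largest member differences were those of Lss (0.81, SE 0.74), Msmo1 (0.80, SE 0.72) and Mvk (0.72, SE 0.73), each close to its own standard error. The fit did not pair same-numbered controls, whose deviations from group means correlated by 0.7575. The shift between replicates therefore enters these standard errors. In limma 0 of 27 members passed, and 0 had an unadjusted p under 0.05, where 0.0% of all genes passed and 1.93% had an unadjusted p under 0.05. The sterol median turned to -0.30 without empty vector replicate 1 and was 1.18 without empty vector replicate 2.

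The arms were next set against each other array by array, as the mean log2 distance of an arm's genes from the mean of the 4 controls. The sterol arm lay at 0.535, 1.03, 1.03 and -0.24 in shIRF7 replicates 1 to 4, against -0.03 and 0.49 in scramble and -0.996 and 0.54 in empty vector. The fatty acid arm lay at 0.26, 0.425, 0.49 and -0.33 in shIRF7, against -0.16 and 0.23 in scramble and -0.39 and 0.32 in empty vector. In both arms shIRF7 replicates 2 and 3 were the highest arrays and empty vector replicate 1 the lowest, with the sterol arm over the wider range. The sterol arm's distance exceeded that of the fatty acid arm by 0.28, 0.61, 0.55 and 0.09 in shIRF7, against 0.13 and 0.25 in scramble and -0.60 and 0.22 in empty vector. The shIRF7 and control values of this gap overlapped. Irf7 itself was lowest in shIRF7 replicate 1 and highest in shIRF7 replicate 4, but all 4 values lay below the negative control percentile. Of these 4 arrays replicate 4 had the lowest sterol arm. The sterol arm of replicate 1, at 0.535, was below that of replicates 2 and 3.

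**Figure D3:**
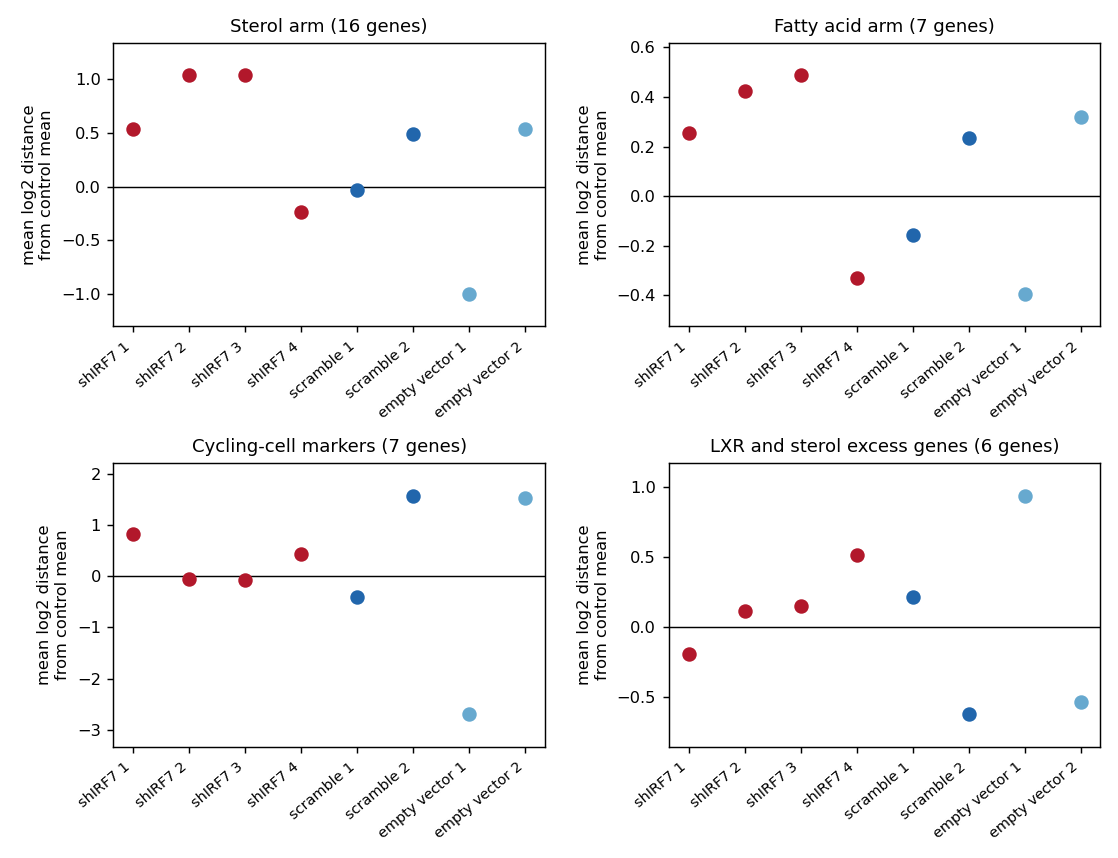
Mean log2 distance from the control mean (vertical axes, scaled per panel) of 4 gene lists on each of the 8 arrays: sterol arm, fatty acid arm, cycling-cell markers, and genes of the LXR and sterol excess list. The sterol arm spans -0.996 (empty vector 1) to 1.03 (shIRF7 2 and 3), and the cycling markers span -2.69 (empty vector 1) to 1.57 (scramble 2).

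The spread between arrays of a group also differed between the arms. The median SD over the 4 controls was 0.675 for sterol arm genes and 0.254 for fatty acid genes, against 0.285 for all genes. Over the 4 shIRF7 arrays it was 0.627 and 0.468, against 0.247 for all genes. Among single members the control SD ran from 0.08 (Scap) to 1.15 (Sqle). Insig1, at 0.11, and Ebp, at 0.11, were among the members whose controls lay closest together.

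The control replicates were then compared with each other, the second replicates of scramble and empty vector against the first. All 16 sterol arm genes averaged higher in replicate 2 than in replicate 1, with a median log2 difference of 1.01, as did all 7 fatty acid genes, with a median of 0.35. The fatty acid genes Acaca and Elovl6 rose in replicate 2 and were the members past the threshold in limma. These 2 of 27 members compare with 8.41% of all genes past the threshold (1640 genes) and with 5.41% past it and higher. Without adjustment 9 members had a p under 0.05, all higher (Hmgcs1, Mvk, Idi1, Sqle, Lss, Sc5d, Stard4, Acaca and Elovl6), against 13.0% of all genes that were so and higher. Of the 7288 genes above the negative control percentile on at least 2 arrays, 1833 were so and higher. Of the same 7288 genes 825 passed the adjusted threshold and were higher. The median over all genes was -0.04, with 45.9% above 0.

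Elovl6 measured 14.13 and 14.11 in control replicate 2 (scramble, then empty vector), against 12.97 and 11.87 in control replicate 1. The second replicates nearly coincided, and the first fell short of them by unequal amounts. The difference was 1.70 (SE 0.42, 3.25-fold, adjusted p = 0.0443 in limma). Acaca measured 10.43 in both arrays of control replicate 2, against 9.49 and 9.73 in control replicate 1, a difference of 0.82 (SE 0.19, 1.77-fold, adjusted p = 0.036 in limma). Its 4 shIRF7 values lay in the gap between the replicates or at its lower edge. The Elovl6 promoter printed above holds neither of the marked motifs.

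Sqle showed the largest difference of the sterol arm, with 12.94 and 13.12 in control replicate 2, against 11.82 and 10.65 in control replicate 1. The difference of 1.80 (SE 0.48, 3.48-fold) had an adjusted p of 0.0565 in limma and missed the threshold. Idi1 differed by 1.69 (SE 0.57, adjusted p = 0.107), Mvk by 1.51 (SE 0.53, adjusted p = 0.121), Lss by 1.44 (SE 0.57, adjusted p = 0.166), Stard4 by 1.33 (SE 0.39, adjusted p = 0.073) and Hmgcs1 by 1.28 (SE 0.37, adjusted p = 0.0708, all limma). In each of these genes empty vector replicate 1 was the lowest of the 8 arrays. The members of smallest limma p in shIRF7 against both controls differed less between control replicates: Insig1 by 0.18 (SE 0.24), Pmvk by 0.37 (SE 0.53) and Fads1 by 0.35. A small p favours genes whose controls lie close together, so this was partly set by the choice of genes. The next members by that p differed by 1.11 (Dhcr7), 0.73 (Fdft1) and 0.16 (Ebp). Of the promoters printed above, those of Hmgcs1, Idi1 and Lss hold CCAAT matches, and so does that of Insig1.

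**Figure D4:**
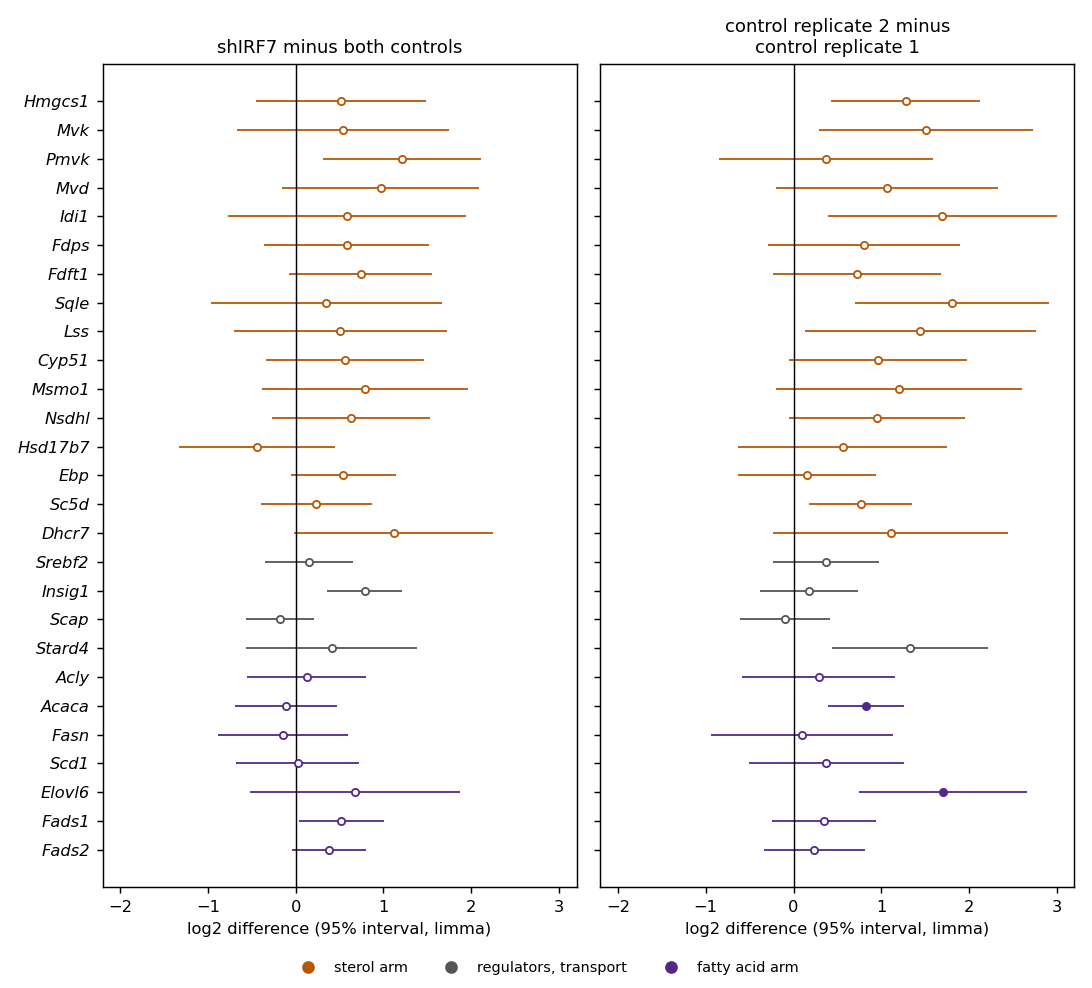
Log2 difference (horizontal axes) with 95% interval from limma for each measured member, in shIRF7 minus both controls (left) and control replicate 2 minus control replicate 1 (right), coloured by arm, with filled dots for an adjusted p under 0.05. On the left no dot is filled and the differences reach 1.21 (Pmvk), while on the right Acaca and Elovl6 are filled and Sqle reaches 1.80.

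The second replicate exceeded the first in both controls in 24 of 27 members, against 31.9% of all genes, and in all 3 groups in 21 of 27, against 12.4%. The step was uneven: the sterol median of replicate 2 minus replicate 1 was 0.46 in shIRF7, 0.47 in scramble and 1.445 in empty vector, and that of the fatty acid arm 0.44, 0.15 and 0.56. Control replicate 2 lay wholly above control replicate 1 in 22 of 27 members, against 26.6% of all genes. Of the 7288 genes above the negative control percentile on at least 2 arrays, 3041 were so placed. Taken within replicate number 1, shIRF7 minus the controls had a sterol median of 1.09 and a fatty acid median of 0.455. Within number 2 these were 0.54 and 0.28. As the numbers do not pair shIRF7 with the controls, these are not matched differences, and each rests on 1 shIRF7 array.

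Other features of the control arrays also differed between the replicates. The median of the negative control probe sets was 4.56 and 4.55 in replicate 2 of scramble and empty vector, against 4.26 and 4.21 in replicate 1, and it was 4.18, 4.56, 4.54 and 4.33 in shIRF7 replicates 1 to 4. Of the 8 cycling-cell markers listed 7 were measured, and 5 exceeded the negative control percentile on all arrays. All 7 averaged higher in control replicate 2, with a median difference of 2.96. In limma 6 of the 7 passed the threshold, against 5.41% of all genes past it and higher. The mean level of the 7 markers was 13.45 and 13.40 in control replicate 2, against 11.46 and 9.18 in control replicate 1. In shIRF7 they ran the other way, at 12.70, 11.81, 11.80 and 12.31 in replicates 1 to 4: replicate 2 minus replicate 1 had a median of -0.90 with 0 of 7 markers above 0, while that of the sterol arm was 0.46. In shIRF7 against both controls their median difference was 0.23 and 0 of 7 passed in limma, with 0 at an unadjusted p under 0.05. The part of these features in the differences of the lipid synthesis genes was not tested.

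The calls of Acaca and Elovl6 depended on the arrays kept and on the scaling, since cyclic loess left 0 members past the threshold (8.14% of all genes passed it). No member passed when shIRF7 replicate 2 or 3 was left out (6.07% and 6.11% of all genes passed). There were 3 members without shIRF7 replicate 1 or 4 (13.7% and 5.72% of all genes). Leaving out a control array left 1 array of its control replicate, so the calls of those fits are not listed here. With any array left out, Acaca differed by 0.70 to 0.94 and Elovl6 by 1.15 to 2.25. The sterol median between control replicates ran from 0.51 to 1.42 over these fits.

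Beyond the members, 22 of 28 further genes of these pathways were measured: partners in SREBP processing, electron donors, suppliers of acetyl units and NADPH, other fatty acid steps, and genes of the response to sterol excess driven by the LXR receptors. In shIRF7 against both controls 0 of 22 passed in limma (0.0308% of all genes), and the median difference was 0.18. Without adjustment 4 had a limma p under 0.05, all higher, against 4.01% of all genes that were so and higher. The largest differences were those of Lpin1, a phosphatidate phosphatase gene, at 1.06 (adjusted p = 0.587), Acss2, an acetyl-CoA synthetase gene, at 0.97 (adjusted p = 0.683), and Cyb5b, an electron carrier gene, at 0.80 (adjusted p = 0.544, all limma). Between control replicates 1 of the 22 passed the threshold and was higher, and 3 passed it and were lower. Of all genes 5.41% passed it and were higher, and 2.99% passed it and were lower. Hsd17b12, an enzyme of fatty acid elongation, rose by 0.89 (adjusted p = 0.0464). Mbtps1, the protease that first cuts SREBP in the Golgi, fell by 0.73 (adjusted p = 0.0484), and Npc2, which moves cholesterol out of lysosomes, fell by 1.18 (adjusted p = 0.0485, all limma). Of the 8 fits that each left out an array, Hsd17b12 passed in 1, Mbtps1 in 2 and Npc2 in 2, with adjusted p-values up to 0.261, and cyclic loess gave Hsd17b12 an adjusted p of 0.0683.

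Abca1, the LXR target that exports cholesterol from cells, measured 6.61 and 7.21 in control replicate 2 (scramble, then empty vector), against 9.46 and 10.51 in control replicate 1. Both values of control replicate 2 lay below the negative control percentile of their arrays (8.62 and 8.64), so the fold is taken against background. Abca1 was lower in both second replicates by several units, a difference of -3.08 (SE 0.65, 8.43-fold lower, adjusted p = 0.0283 in limma). It passed in 5 of the 8 fits that left out an array, and not without empty vector replicate 1 or 2 or scramble replicate 2. In shIRF7 it measured 8.02, 8.19, 8.15 and 9.98, inside the range of the controls. Over the 6 measured genes of the LXR and sterol excess list the median difference between control replicates was -1.15. Abca1 and Npc2 passed the threshold and were lower, as 2.99% of all genes did. Of the 6 genes 5 were below 0, against 10558 of all 19505 genes. Nr1h3, Abcg1 and Ch25h exceeded the negative control percentile on no array, Abca1 on 4, and Mylip and Npc2 on all 8. The sterol arm had all 16 genes above 0, against 45.9% of all genes. Mylip, which marks lipoprotein receptors for degradation and is also an LXR target, differed by -1.72 (adjusted p = 0.0902), and Aacs, an acetoacetyl-CoA synthetase gene, by 1.55 (adjusted p = 0.115, both limma). In shIRF7 against both controls the LXR and sterol excess median was 0.15, with none of its 6 genes past the threshold in limma or at an unadjusted p under 0.05.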

How the data were processed

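Total RNA of 8 samples was measured on Affymetrix mouse arrays. Per the submitters' processing notes, the authors made the deposited log2 values with RMA in Affymetrix Expression Console 1.4.1.46. They span 1.66 to 18.95, and 0 columns were left unused. A genome build of the array was not given in the sources used here. The platform annotation gave 1 symbol to 19572 of 28846 probe sets, several to 0 and none to 9274. For 55 genes with several probe sets the one with the highest mean was kept, which left 19505 genes. A level belongs to its own probe set and is not compared between genes.

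Fits over all genes used lmFit and eBayes of limma 3.58.1 (R 4.3.3; 5 residual and 2.68 prior degrees of freedom), with a mean per group, or for the control replicates with cells of control replicate 1, control replicate 2 and shIRF7. Benjamini-Hochberg adjustment ran over all genes (threshold 0.05), and the code was tested on simulated data. Negative control probe sets (5222) gave the 95th percentile used to describe and filter dim genes. Members, gene lists and comparisons were chosen with earlier results of these data known. Array values are printed for Irf7, the 6 members of smallest p and those whose groups do not overlap in shIRF7 against both controls, the 6 largest differences between control replicates, the 3 largest between scramble and empty vector, and the regulators, Acly, Acaca, Fasn and Scd1. For the other pathway genes, those past the threshold and the 3 largest differences of both main comparisons are named.

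Deviations from group means correlated across genes by 0.7575 between same-numbered scramble and empty vector arrays, but between -0.16 and -0.31 with shIRF7, so the replicate numbers were not taken as pairs. The alternatives were a filter on dim genes, trend and robust fitting, cyclic loess, averaged probe sets per gene, the controls as 1 group, the replicate block, each array left out, and, added after seeing the data, shIRF7 replicates 2 and 3 averaged, since these arrays were the closest pair.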

Additional observations from a re-analysis of the deposited data

Results flagged for a closer look

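Of 74 gene and group pairs examined (37 genes, each in the 4 shIRF7 arrays and the 4 controls), 7 had an end value set apart from the other 3 beyond Dixon's 95% critical value, which chance passes in about 1 of 20 groups. shIRF7 replicate 4 stood apart in 4 of these. Mvk was 9.35 there, with the other shIRF7 arrays at 10.57 to 10.66, Hsd17b7 was 10.67, with the others at 11.92 to 12.04, and Insig1 was 13.34, with the others at 13.92 to 13.98. Abca1 was higher there, at 9.98, with the others at 8.02 to 8.19. shIRF7 replicate 1 was low for Mylip, at 9.68, with the others at 10.76 to 10.96. Among the controls empty vector replicate 1 was low for Hsd17b7, at 11.22, with the others at 12.38 to 12.44, and for Fads2, at 15.26, with the others at 15.81 to 15.89.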

How the results depend on the processing

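No member passed the threshold in shIRF7 against both controls, scramble or empty vector, or in scramble against empty vector, under any alternative run. The 6 genes past it in shIRF7 against both controls became 3 with trend and robust fitting, 28 with the controls as 1 group, 0 with shIRF7 replicates 2 and 3 averaged, and 0 to 28 with an array left out. The 1 gene against scramble became 0 with the filter on dim genes, with trend and robust fitting and with the averaged arrays, and 0 to 8 with an array left out. The 0 genes against empty vector became 0 to 3. The 2 members called between control replicates became 5 with the filter (Acaca, Elovl6, Hmgcs1, Sqle and Stard4, where 1725 of 7288 genes passed), 0 with cyclic loess, 0 with the averaged arrays and 0 to 5 with an array left out, and the 1640 genes became 0 to 2666. Trend and robust fitting also called 2 members, Elovl6 and Sqle. With an array left out the sterol median ran from 0.24 to 0.996 in shIRF7 against both controls, 0.12 to 1.66 against empty vector, -0.30 to 1.18 in scramble against empty vector and 0.51 to 1.42 between control replicates. The fatty acid median in shIRF7 against both controls ran from -0.05 to 0.38. The sterol median minus the fatty acid median, 0.445 and 0.665 in shIRF7 against both controls and between control replicates, ran from 0.17 to 0.81 and from 0.22 to 0.896. With the replicate number as a block, which leaves 2 residual degrees of freedom, 0 genes passed in shIRF7 against both controls, 0 against scramble, and 0 genes and 0 members between replicates 2 and 1, and the block changed no other call of members. Of single genes in shIRF7 against both controls, Abca1 (0.14, and -0.69 to 0.963 with an array left out) turned to -0.345 under the block, -0.69 without empty vector replicate 2, -0.575 without scramble replicate 2 and -0.33 without shIRF7 replicate 4. Npc2 (-0.07, and -0.483 to 0.345) turned to 0.345, 0.11 and 0.06 without empty vector, scramble and shIRF7 replicate 1. The causes of these changes were not tested. Fewer genes entered the fit under the filter, and fewer arrays where some were left out or averaged. Cyclic loess moved the median of all genes by at most 0.065. All 27 members lay above background on all arrays, and their control SD had a median of 0.529, against 0.285 for all genes.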

Other observations

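Some further genes of fatty acid elongation, electron supply and citrate export were picked after their values were seen. Of the 22 measured genes beside the members, 3 had all shIRF7 arrays above all controls (Tecr, Elovl5 and Cyb5b), against 2.58% of all genes. Tecr, the last reductase of the elongation cycle, measured 15.30, 15.50, 15.40 and 15.27 in shIRF7, against 14.77 and 14.59 in scramble and 14.65 and 14.73 in empty vector. All shIRF7 arrays were above all controls, and the difference of 0.68 (SE 0.13) had an unadjusted p of 0.000842 and an adjusted p of 0.187 in limma. Elovl5, an elongase of polyunsaturated fatty acids, averaged 15.29 ± 0.03 in shIRF7 and 14.80 ± 0.35 in the controls (SD, n = 4 each), without overlap. Cyb5b, whose product passes electrons to desaturases and sterol oxidases, averaged 14.28 ± 0.15 in shIRF7 and 13.49 ± 0.62 in the controls (SD, n = 4 each), without overlap. Others of the same lists differed less or the other way: Hsd17b12 by -0.30 (SE 0.27), Elovl1 by 0.01 (SE 0.17) and Cyb5r3, whose groups overlapped, by 0.15 (SE 0.14). Slc25a1, the mitochondrial citrate carrier gene, measured 15.09, 15.78, 15.54 and 14.64 in shIRF7, against 14.97 and 14.76 in scramble and 14.70 and 14.82 in empty vector, so that shIRF7 replicate 4 was below every other array while the other 3 were above all controls.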
